A study of Chlorocebus sabaeus with 45 samples.

Results

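The genes of the red cell membrane skeleton were followed in whole blood of vervet monkeys (Chlorocebus sabaeus) before and after relocation to captivity. The set holds 9 genes, taken by symbol from the 33994 gene rows of each expression table: SPTB, ANK1, SLC4A1, EPB42, EPB41, TMOD1, DMTN, ADD2 and GYPC. All 9 were found and all 9 were among the 18753 genes tested. Blood came from 15 wild-born juvenile males of St. Kitts, 1 from each troop, and every animal gave a sample on day 0 (Tp1), day 3 (Tp2) and day 14 (Tp4), which makes 45 libraries. Day 0 samples were drawn in the field right after trapping, under ketamine and xylazine. Day 3 and day 14 samples were drawn in quarantine, in individual housing, under dexmedetomidine and midazolam. All animals were relocated, no group stayed in the wild, and each later sample followed at least 1 earlier blood draw. Sedation, place, earlier sampling and the relocation stressor therefore cannot be told apart in any comparison with day 0. Day 14 also followed more blood draws than day 3, so that time in quarantine and earlier sampling cannot be told apart between them. In the study's sample list the RNA integrity number was higher on day 14 than on day 0 in most animals. RNA quality is thus in part tied to the time point.

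A mature red cell has no nucleus and no internal cytoskeleton, and its shape is held by a protein net under the membrane. Long spectrin tetramers form the strands of the net. Ankyrin and its partners tie the strands to the anion exchanger in the lipid bilayer, and short actin filaments tie the ends of the strands together at junctional complexes, which are also anchored to a glycophorin. Inherited defects of several of these proteins are known causes of spherocytosis and elliptocytosis. Red cells in the circulation make no new RNA, but reticulocytes, the youngest of them, still carry the transcripts that were made in the marrow. Several of the genes are also used outside the red cell lineage, EPB41 and GYPC in many cell types, TMOD1 in muscle, and ADD2 and DMTN in brain.

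The values are FPKM, fragments on a gene per unit of its length and of library depth, so that levels can be set side by side between genes. Between 13216280 and 31469337 fragments per library fell on genes, and the median library of day 0, 3 and 14 had 22963984, 22754349 and 22758495. The number of fragments behind each value was recovered from the steps in the FPKM. By the median library EPB41 rested on the most fragments (57047, from 6720 to 271228) and DMTN on the fewest (97, from 20 to 769). The lowest single count was 18, for ADD2. The day 0 library of animal 9 and the day 14 library of animal 4 stood apart, with 30752 and 31402 genes above 0 where no other library had more than 26792. Both sit at the low end for this gene set: the day 0 library of animal 9 was the lowest of its time point for SPTB, SLC4A1, EPB42, TMOD1 and ADD2, and the day 14 library of animal 4 was the lowest for SPTB, ANK1, EPB42, EPB41 and TMOD1. Results are therefore also given without these 2 libraries where they differ. The erythroid marker ALAS2, the first enzyme of heme synthesis in red cell precursors, had a median of 5247 FPKM on day 0, and globin transcripts, which the library preparation removed, were not analysed here. The T cell marker CD3D (82.7 FPKM) and the B cell marker CD79B (165 FPKM) were also present on day 0.

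Relocation was followed by higher levels of the whole set. On day 3 vs. day 0, 7 of the 9 genes rose: SPTB, ANK1, SLC4A1, EPB42, EPB41, DMTN and ADD2, with log2 fold changes between 1.12 and 2.35. Among all tested genes, 6.13% rose in this comparison. By day 14 all 9 genes had risen vs. day 0, with log2 fold changes between 1.04 (GYPC) and 3.09 (SLC4A1), against 18.2% of all tested genes. Between day 3 and day 14 only TMOD1, ADD2 and GYPC passed the threshold, again upwards, against 7.89% of all tested genes, and 0 of the 9 genes fell in any comparison. The median log2 fold change of the 9 genes was 1.60 on day 3 and 2.32 on day 14 vs. day 0, and 0.83 from day 3 to day 14, where the medians over all tested genes were 0.01, −0.03 and −0.03. Calls were made by limma on log2(FPKM + 0.1), where the FPKM of each library had first been TMM-scaled (trimmed mean of M values, a factor that sets the typical gene equal between libraries), at a Benjamini-Hochberg adjusted p under 0.05 over all tested genes, and a fold change on this scale understates the change of a gene with low values. The comparisons with day 0 share the day 0 samples, so they are not independent of each other. This fit does not use the pairing of the 3 samples of 1 animal. With the animal as a replicate block, 8, 9 and 5 of the 9 genes rose on day 3 vs. day 0, day 14 vs. day 0 and day 14 vs. day 3. Of all tested genes 10.2%, 22.5% and 13.3% then rose. In whole blood, more cells that carry these transcripts and more transcript per cell cannot be told apart.

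**Figure D1:**
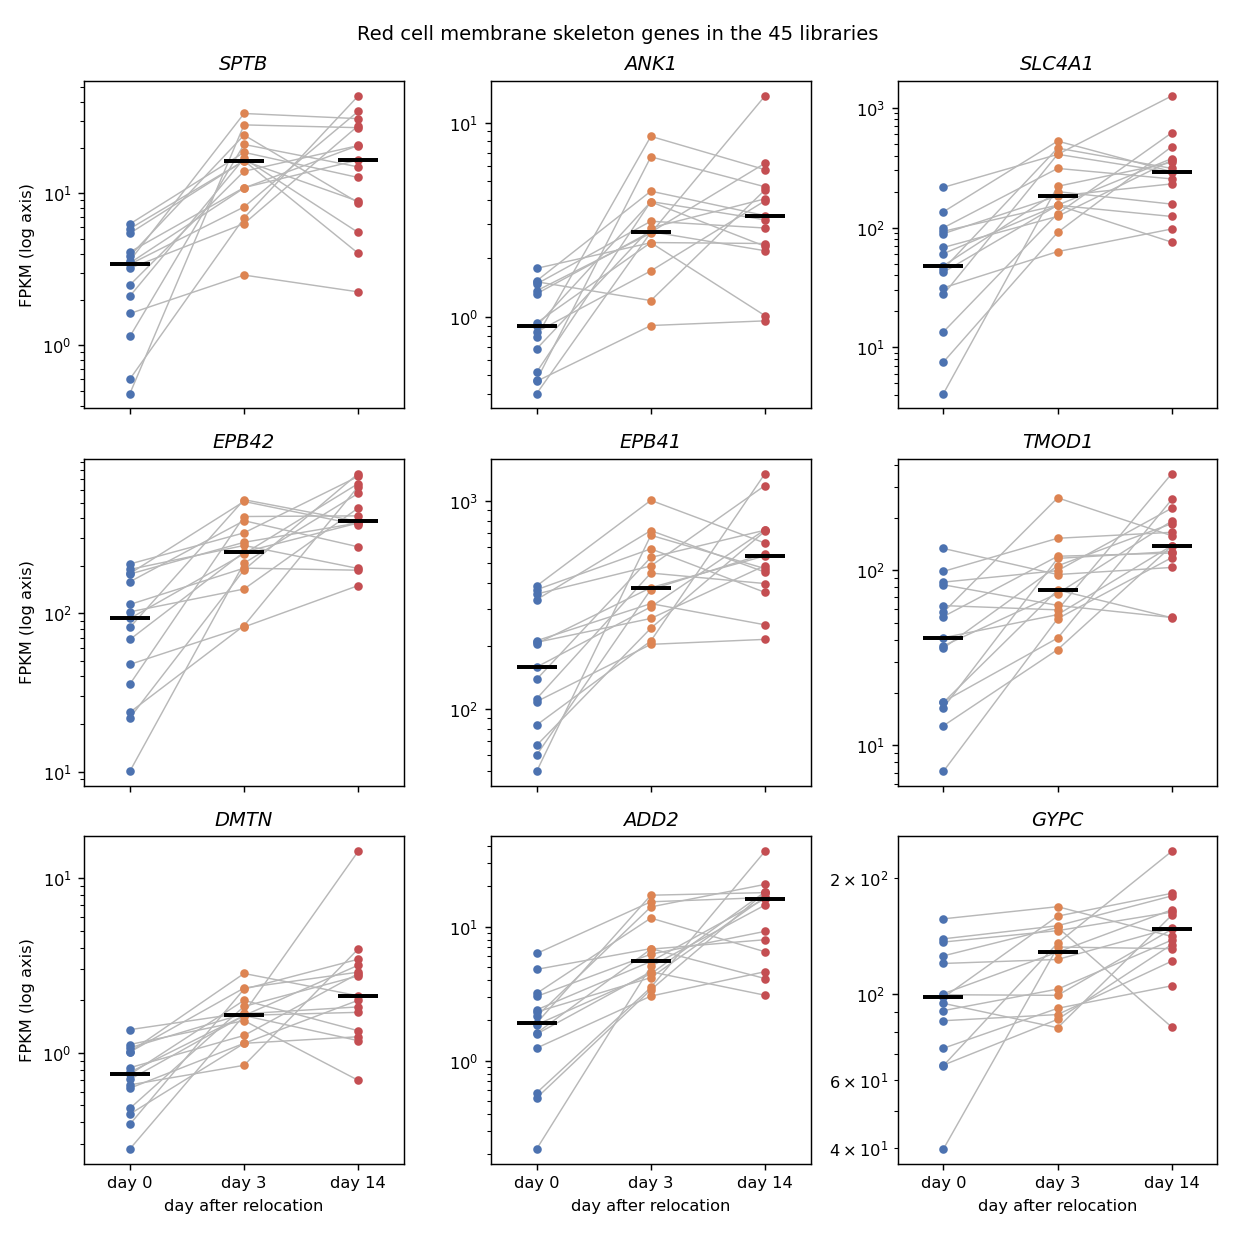
FPKM (log axis) of each of the 9 genes in the 45 libraries, with 1 panel per gene; points are libraries, grey lines join the samples of 1 animal and black bars are medians of 15 animals. The median of SLC4A1 went from 48.0 on day 0 to 184 on day 3 and 293 on day 14, while GYPC moved least, from 98.1 to 128 and 147.

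SPTB encodes beta spectrin, the chain that carries the binding sites for ankyrin and for the junctional complex. Its FPKM lay between 0.481 and 6.29 on day 0 (median 3.41), between 2.90 and 33.6 on day 3 (median 16.4) and between 2.25 and 43.8 on day 14 (median 16.6). On day 3, 14 of the 15 samples were above the highest day 0 sample, so the 2 groups barely overlapped, and on day 14 it was 12 of 15. SPTB rose by a log2 fold change of 2.35 (standard error 0.45, limma adjusted p = 0.0010) on day 3 vs. day 0 and was higher in 15 of 15 animals; no other gene of the set had a larger value at that time. The log2 fold change on day 14 vs. day 0 was 2.82 (standard error 0.45, adjusted p = 7.8e-06), with 14 animals higher. Between day 3 and day 14 the 15 animals were split, 8 higher and 7 lower, and the log2 fold change of 0.47 did not pass (adjusted p = 0.508).

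ANK1 (ankyrin) couples the spectrin net to the anion exchanger. Its FPKM was low, between 0.404 and 1.78 on day 0 (median 0.898), between 0.903 and 8.49 on day 3 (median 2.75) and between 0.955 and 13.7 on day 14 (median 3.32). The later groups overlapped the day 0 group little: 12 of 15 samples on day 3 and 13 of 15 on day 14 were above the highest day 0 sample. The log2 fold change was 1.60 (standard error 0.36, limma adjusted p = 0.0032) on day 3 vs. day 0 and 2.15 (standard error 0.36, adjusted p = 1.3e-05) on day 14 vs. day 0, with 14 of 15 animals higher in both. With a constant of 1 before the logarithm instead of 0.1, the day 3 value was 1.02 (adjusted p = 0.0087).

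SLC4A1, band 3, exchanges chloride for bicarbonate and is the main membrane anchor of the net. It had 4.10 to 217 FPKM on day 0 (median 48.0), 63.0 to 528 on day 3 (median 184) and 75.5 to 1259 on day 14 (median 293). The spread on day 0 was the widest of the set, with a coefficient of variation of 85.6%, and the highest day 0 sample (animal 15) was above 9 of the 15 day 3 samples. SLC4A1 still rose in 15 of 15 animals on day 3, by a log2 fold change of 2.26 (standard error 0.51, limma adjusted p = 0.0035). On day 14 it was higher in 14 of 15 animals, by 3.09 (standard error 0.51, adjusted p = 1.2e-05), the largest log2 fold change of the set.

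EPB42 encodes a peripheral protein that steadies the contact between ankyrin and band 3. Its FPKM ranged from 10.1 to 205 on day 0 (median 92.8), from 82.0 to 521 on day 3 (median 244) and from 150 to 762 on day 14 (median 380). Above the highest day 0 sample lay 10 of the day 3 samples and 12 of the day 14 samples. EPB42 rose on day 3 by a log2 fold change of 1.73 (standard error 0.43, limma adjusted p = 0.0077) in 15 of 15 animals and on day 14 by 2.81 (standard error 0.43, adjusted p = 5.1e-06) in 14. The log2 fold change of 1.08 from day 3 to day 14 did not pass (adjusted p = 0.0825, 10 animals higher), but it did once the animal was a replicate block (adjusted p = 0.0466). It also passed without the 2 libraries that stood apart (adjusted p = 0.0253).

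The junctional complex was represented by 5 genes. EPB41 encodes protein 4.1R, which strengthens the contact between spectrin and actin and binds glycophorin C. It was the most abundant gene of the set at every time point, with 50.1 to 389 FPKM on day 0 (median 159), 204 to 1003 on day 3 (median 382) and 215 to 1348 on day 14 (median 543). Above the highest day 0 sample lay 7 samples of day 3 and 12 of day 14. EPB41 rose by a log2 fold change of 1.44 (standard error 0.38, limma adjusted p = 0.0104) on day 3, in 14 of 15 animals. On day 14 it rose by 2.22 (standard error 0.38, adjusted p = 1.7e-05) and was the 1 gene of the set that was higher in all 15 animals.

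TMOD1 (tropomodulin) caps the slow-growing end of the short actin filaments. Its FPKM lay between 7.12 and 133 on day 0 (median 41.2), between 35.2 and 259 on day 3 (median 77.2) and between 53.6 and 357 on day 14 (median 138). The groups overlapped: 2 day 3 samples and 9 day 14 samples were above the highest day 0 sample, and 5 day 0 samples were below the lowest day 3 sample. On day 3 vs. day 0 the log2 fold change of 1.15 (standard error 0.41) did not pass (limma adjusted p = 0.0554), with 12 animals higher, although it did with the animal as a replicate block (adjusted p = 0.0203). It also passed without animal 1, 13 or 15 (adjusted p = 0.0420 to 0.0459). TMOD1 rose vs. day 0 by 2.32 on day 14 (standard error 0.41, adjusted p = 2.6e-05) in 13 animals, and vs. day 3 by 1.17 (standard error 0.41, adjusted p = 0.0491) in 12.

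ADD2 (beta adducin) caps the fast-growing end of the filaments and helps spectrin to bind them. It had 0.219 to 6.32 FPKM on day 0 (median 1.91), 3.04 to 17.2 on day 3 (median 5.50) and 3.08 to 36.6 on day 14 (median 16.2). Of the day 0 samples, 12 of 15 were below the lowest day 14 sample, and 12 of the day 14 samples were above the highest day 0 sample. ADD2 rose by a log2 fold change of 1.84 (standard error 0.42, limma adjusted p = 0.0042) on day 3, in 15 of 15 animals, and by 3.06 (standard error 0.42, adjusted p = 1.4e-06) on day 14, in 14. It also rose from day 3 to day 14, by 1.22 (standard error 0.42, adjusted p = 0.0485), in 11 of 15 animals.

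DMTN (dematin) bundles actin and ties the junction to the membrane. It was the least abundant gene at every time point, between 0.282 and 1.36 FPKM on day 0 (median 0.753), between 0.848 and 2.84 on day 3 (median 1.64) and between 0.696 and 14.2 on day 14 (median 2.12). The highest day 14 value belonged to animal 15 and was far above the rest of its group, the next being 3.92 in animal 14. DMTN rose by a log2 fold change of 1.12 (standard error 0.32, limma adjusted p = 0.0170) on day 3 and by 1.95 (standard error 0.32, adjusted p = 1.0e-05) on day 14, each in 14 of 15 animals. The day 3 call depended on the constant added before the logarithm and was lost when 1 was added instead of 0.1 (log2 fold change 0.60, adjusted p = 0.0783), which also brought the day 14 value to 1.25. From day 3 to day 14 the log2 fold change of 0.84 did not pass (adjusted p = 0.0673), but it passed with the replicate block (adjusted p = 0.0330) and without the 2 libraries that stood apart (adjusted p = 0.0319).

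GYPC, glycophorin C, is the transmembrane protein that holds the junctional complex in the bilayer. Its FPKM spanned 39.8 to 157 on day 0 (median 98.1), 81.9 to 168 on day 3 (median 128) and 82.2 to 234 on day 14 (median 147). The groups overlapped more than those of any other gene on day 14, with 6 samples above the highest day 0 sample, and on day 3 it was 2. The log2 fold change of 0.39 (standard error 0.20) on day 3 did not pass (limma adjusted p = 0.207), with 13 animals higher. GYPC rose on day 14 by 1.04 vs. day 0 (standard error 0.20, adjusted p = 8.0e-05) in 13 animals and by 0.65 vs. day 3 (standard error 0.20, adjusted p = 0.0283) in 12. Without TMM scaling these values were 0.62 (adjusted p = 0.0010) and 0.28 (adjusted p = 0.145). GYPC had the smallest change of the 9 genes in 10 of 15 animals on day 3 and in 9 of 15 on day 14.

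**Figure D2:**
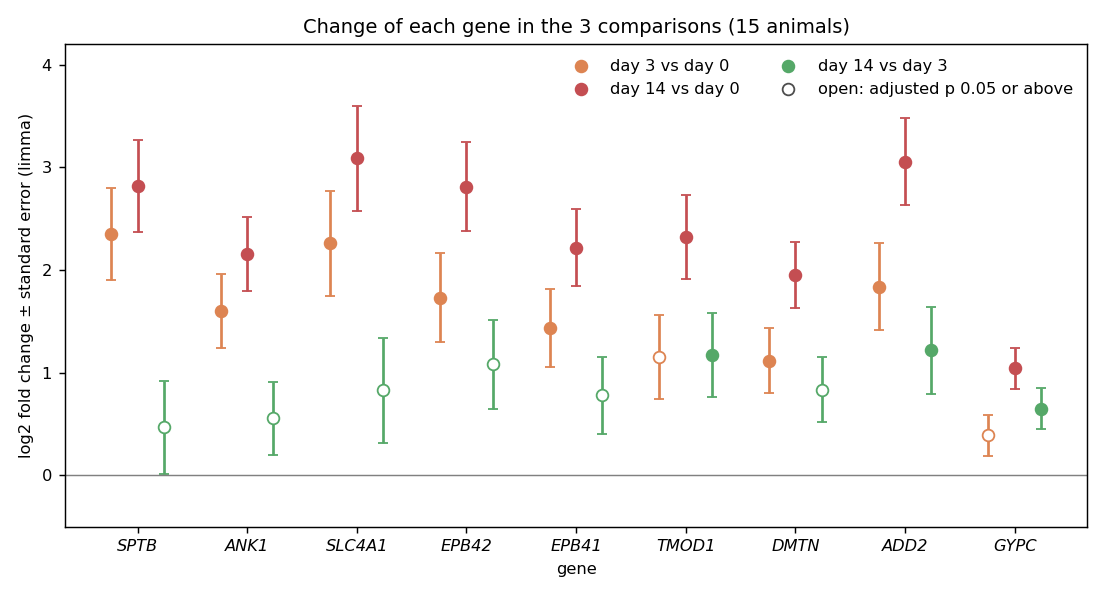
Log2 fold changes with standard errors from limma for the 9 genes in the 3 comparisons (15 animals at each time point); filled points have an adjusted p under 0.05 and open points do not. Day 14 vs. day 0 is filled for all 9 genes, day 3 vs. day 0 for 7 and day 14 vs. day 3 for 3. The fit shown does not pair the samples of 1 animal. With the animal as a replicate block, TMOD1 passed on day 3 vs. day 0 as well. EPB42 and DMTN then also passed on day 14 vs. day 3.

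The 9 genes did not divide their rise between the 2 intervals in the same proportion. The day 3 log2 fold change as a share of the day 14 one, both vs. day 0, was 83.4% for SPTB, 74.2% for ANK1 and 73.2% for SLC4A1. It was 64.8% for EPB41, 61.5% for EPB42, 60.2% for ADD2 and 57.2% for DMTN. It was lowest for TMOD1 (49.7%) and GYPC (37.6%). These shares describe the fitted means and were not tested against each other. SPTB was highest on day 14 in 8 animals and on day 3 in 7, whereas GYPC was highest on day 14 in 12 animals and ADD2 and TMOD1 in 11. For 8 of the 9 genes 0 animals had their highest value on day 0, and the exception was TMOD1, with 2.

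The calls on day 14 vs. day 3 were the least stable. With the animal as a replicate block 5 of the 9 genes were called (TMOD1, ADD2, GYPC, EPB42 and DMTN), where 13.3% of all tested genes rose. With the block 8 of 9 genes, TMOD1 added, were called on day 3 vs. day 0, against 10.2% of all tested genes, and 9 of 9 on day 14 vs. day 0, against 22.5%. Without the 2 libraries that stood apart, the counts for day 3 vs. day 0, day 14 vs. day 0 and day 14 vs. day 3 were 7, 9 and 5. In the first 2 of these comparisons 972 and 3285 of all tested genes rose. Fits that each left out 1 animal called 0 to 4 genes on day 14 vs. day 3, with 0 without any 1 of animals 2, 3, 8, 9, 12, 14 and 15 and 1 without animal 10. Each of these fits called all 9 genes on day 14 vs. day 0. When the RNA integrity number was a covariate the counts were 7, 9 and 0. In the comparisons with day 0, 701 and 2133 of all tested genes then rose. Without TMM scaling the counts were 8, 9 and 2, where 710, 1460 and 606 of the 18753 tested genes rose. The median log2 fold changes of all tested genes were then −0.03, −0.36 and −0.35. Those of the 9 genes from day 3 to day 14 were smaller without TMM scaling, from 0.10 (SPTB) to 0.85 (ADD2).

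**Figure D3:**
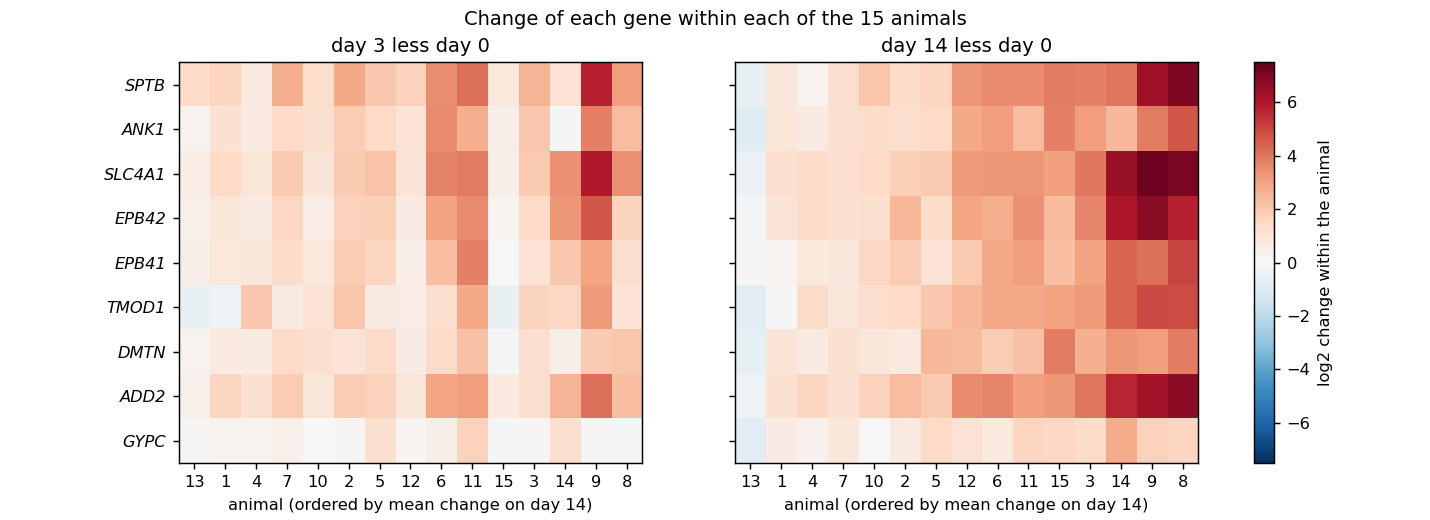
Log2 change within each animal for the 9 genes (rows), on day 3 and on day 14 less day 0, with animals ordered by the mean change of the 9 genes on day 14; red is higher and blue is lower than on day 0. Animal 13 is at the low end on day 14 (mean change −0.52) and animal 8 at the high end (5.19).

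The size of the rise differed widely between animals. The mean log2 change of the 9 genes on day 3 vs. day 0 had a median of 1.50 over the 15 animals and ran from 0.22 in animal 15 to 3.62 in animal 9. The day 0 library of animal 9 is 1 of the 2 that stood apart, and the next highest mean was 3.11 in animal 11. By day 14 the median was 2.63 and the range ran from −0.52 in animal 13 to 5.19 in animal 8. All 9 genes were higher than on day 0 in 10 animals on day 3 and in 12 animals on day 14. Counted by gene, 7 of the 9 genes (all but TMOD1 and GYPC) were higher in at least 14 of 15 animals on day 3, where 3.97% of all tested genes were. The 7 were again higher in at least 14 animals on day 14, where 7.93% of all tested genes were.

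Individual animals followed different courses. In animal 8 the members had a mean log2 change of 1.88 on day 3 and of 5.19 on day 14, and SPTB went from 0.599 to 6.89 and then 43.8 FPKM. In animal 15 the first step was small, with 5 of 9 genes higher and a mean of 0.22, and the second was large (2.78). Animal 11 did the reverse, with 3.11 by day 3 and −0.28 from day 3 to day 14. In animal 13 the mean was 0.37 on day 3, and on day 14 EPB41 was the single gene above its day 0 value (log2 change 0.09). SLC4A1 in animal 13 went from 93.1 to 154 and then 75.5 FPKM. Animals 8, 9 and 14, which had the largest changes on day 14, had the lowest mean log2 level of the 9 genes on day 0 (2.11, 1.32 and 2.36), but the change is computed from that same day 0 value. For animal 9 that value comes from a library that stood apart. From day 3 to day 14 the 9 genes were all higher in 6 animals, and in animal 13 0 of them were.

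The spread between animals at 1 time point was also large beside that of other genes. On day 0 the standard deviation of the log2 values was 1.77 for SLC4A1, 1.53 for EPB42 and 1.42 for TMOD1, where the median over all tested genes was 0.43. SLC4A1 exceeded 99.4% of all tested genes in this respect on day 0, 97.0% on day 3 and 98.8% on day 14. GYPC was nearest to the typical gene, with 0.53 on day 0, above 65.0% of all tested genes. Together the 9 genes took a median of 0.184% of a library's fragments before relocation (range 0.0624% to 0.443%). This became 0.505% by day 3 (0.235% to 1.19%) and 0.736% by day 14 (0.273% to 1.83%).

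Levels within the set kept nearly the same order over time. On day 0 the order of median FPKM was EPB41, GYPC, EPB42, SLC4A1, TMOD1, SPTB, ADD2, ANK1 and DMTN. Of the neighbours in this order, GYPC was above EPB42 in 10 of 15 animals and SLC4A1 above TMOD1 in 11, so these pairs lay within the spread between animals, whereas TMOD1 was above SPTB in 15. On day 3 and day 14 EPB42 and SLC4A1 had moved ahead of GYPC, and the rest of the order was as on day 0. The closest neighbours were then EPB42 and SLC4A1 on day 3 (EPB42 higher in 10 of 15 animals), and on day 14 GYPC and TMOD1 (GYPC higher in 9) and SPTB and ADD2 (SPTB higher in 10). The ratio of SLC4A1 to EPB42 in FPKM, for a pair that binds each other in the membrane, had medians of 0.614, 0.819 and 0.700 at the 3 time points. The ratio of EPB41 to GYPC had medians of 1.49, 3.65 and 3.48. That of SLC4A1 to ANK1 had medians of 57.0, 69.7 and 88.9.

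Across the 45 samples the log2 values of the 9 genes went up and down together. Pearson's r over the 36 pairs had a median of 0.892, from 0.743 (ANK1 and GYPC) to 0.977 (SLC4A1 and EPB42). After the mean of each time point was removed, the median was 0.810, from 0.620 to 0.964 for the same pairs. Within single time points the medians over the 36 pairs were 0.825, 0.768 and 0.874 (15 samples each). These correlations are descriptions: the points share libraries, with 3 per animal, and the values of 1 library share its scaling.

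The genes outside the set that were most like it were found by their r with the mean standardized log2 value of the 9 genes over the 45 samples. They were MARCH8 (0.986), ASCC2 (0.978), SLC43A1 (0.975), FOXO3 (0.974) and SLC25A39 (0.974). The r of the members themselves with that mean, which they enter, ran from 0.872 (GYPC) to 0.976 (EPB41). MARCH8, a membrane-bound ubiquitin ligase, had median FPKM of 45.8, 141 and 228 at the 3 time points. SLC25A39, a mitochondrial carrier, was the most abundant of the 5, with 280, 900 and 1418 FPKM. FOXO3, a transcription factor, had 60.4, 180 and 217 FPKM.

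Most members belong to gene families with a sister gene that is used in other cells, and these paralogs were counted from a list drawn up by family. Of 24 tested paralogs, 3 rose and 1 fell on day 14 vs. day 0, with a median log2 fold change of −0.09, where 18.2% of all tested genes rose and 17.6% fell. On day 3 the numbers were also 3 and 1, where 6.13% rose and 6.08% fell. Without TMM scaling, 1 rose and 10 fell on day 14 vs. day 0 (median −0.34), where 41.8% of all tested genes fell. SPTBN1, the spectrin beta chain of non-erythroid cells, had median FPKM of 26.7, 25.8 and 14.3, so that it was well above SPTB on day 0 and close to it on day 14. Its log2 fold change on day 14 vs. day 0 was −0.26 (limma adjusted p = 0.213), and −0.68 without TMM scaling (adjusted p = 0.0116). That of ANK3 was −0.22 (adjusted p = 0.277), of SLC4A2 −0.14 (adjusted p = 0.323), of EPB41L2 −0.01 (adjusted p = 0.963) and of TMOD3 −0.12 (adjusted p = 0.372). Without TMM scaling ANK3 (−0.61, adjusted p = 0.0106), SLC4A2 (−0.54, adjusted p = 0.0123) and TMOD3 (−0.54, adjusted p = 0.00030) passed downwards and EPB41L2 did not (−0.41, adjusted p = 0.0961). ADD1, alpha adducin, which pairs with ADD2 in the red cell but is made in most cells, rose by 0.29 (adjusted p = 0.0367) in 10 of 15 animals, a direction that flipped without TMM scaling (−0.12, adjusted p = 0.470). From day 3 to day 14, 0 paralogs rose and 4 fell, where 7.89% of all tested genes rose and 5.48% fell. Among the 4, SPTBN1 fell by 0.46 (adjusted p = 0.0485) and SLC4A2 fell by 0.34 (adjusted p = 0.0273), each in 13 of 15 animals. Without TMM scaling 12 paralogs fell in this comparison, where 35.2% of all tested genes did.

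**Figure D4:**
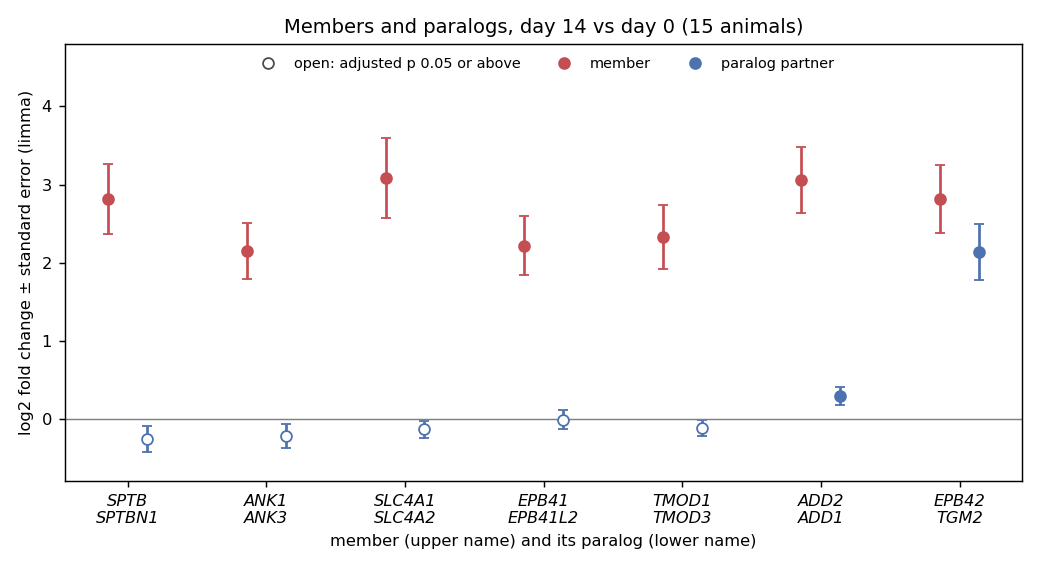
Log2 fold changes on day 14 vs. day 0 with standard errors from limma for 7 members (red) and the paralog set beside each (blue), 15 animals per time point; open points have an adjusted p of 0.05 or above. The paralogs SPTBN1, ANK3, SLC4A2, EPB41L2 and TMOD3 sit between −0.26 and −0.01 (−0.68 and −0.41 without TMM scaling), and TGM2 at 2.13.

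The difference between member and paralog was tested within animals by an exact two-sided sign-flip permutation test, and adjusted over 24 comparisons (8 pairs in 3 comparisons of time points, of which 7 pairs are given here). Members and partners were chosen with earlier results of these data known. The adjustment does not account for that choice, so the p-values describe these pairs only. The log2 change of SPTB less that of SPTBN1 on day 14 vs. day 0 was 3.08 ± 2.13 (SD, n = 15, exact p = 0.00012, adjusted 0.00037), and SPTB moved further up in 14 of 15 animals. The same count and the same p-values held for ANK1 less ANK3 (2.38 ± 1.62), SLC4A1 less SLC4A2 (3.22 ± 2.36) and ADD2 less ADD1 (2.76 ± 1.82), with exact p = 0.00012. EPB41 less EPB41L2 gave 2.22 ± 1.79 in 14 animals (exact p = 0.00018) and TMOD1 less TMOD3 gave 2.44 ± 1.63 in 13 (exact p = 0.00024). On day 3 vs. day 0 these 6 pairs differed as well (exact p = 6.1e-05, the smallest this test can give, to 0.0018). From day 3 to day 14 the differences for SPTB and SPTBN1 (exact p = 0.0549) and for ANK1 and ANK3 (exact p = 0.0799) did not pass, while those for SLC4A1 and SLC4A2 (exact p = 0.0196, adjusted 0.0294), EPB41 and EPB41L2 (exact p = 0.0208, adjusted 0.0294), TMOD1 and TMOD3 (exact p = 0.0010, adjusted 0.0021) and ADD2 and ADD1 (exact p = 0.0021, adjusted 0.0036) passed.

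TGM2 was the exception among the partners. EPB42 is a catalytically inactive relative of the transglutaminases, and TGM2 is an active one. Its FPKM had medians of 0.735, 1.93 and 2.88 at the 3 time points. It rose by a log2 fold change of 1.34 on day 3 (limma adjusted p = 0.0123) and 2.13 on day 14 (adjusted p = 1.6e-05), each in 14 of 15 animals. EPB42 less TGM2 was 0.39 ± 0.85 on day 3 (exact p = 0.0811) and 0.68 ± 0.99 on day 14 (exact p = 0.0126, adjusted 0.0202), with EPB42 ahead in 9 of 15 animals. F13A1, the factor XIII subunit of platelets and monocytes and the most abundant paralog, had 181, 361 and 164 FPKM at the 3 time points and passed in none of the comparisons (adjusted p = 0.0960, 0.941 and 0.0984), although without TMM scaling it fell by 1.02 from day 3 to day 14 (adjusted p = 0.0061). The partner SVIL of DMTN was not analysed here.

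The other proteins of the net, which are not restricted to red cells for the most part, were counted from a list of 12 genes, all tested. By day 14, 4 rose vs. day 0 (ADD1, TPM1 and MPP1 among them) and 1 fell (ADD3), where 18.2% and 17.6% of all tested genes did, and the median log2 fold change was 0.00. Without TMM scaling 2 rose and 7 fell (median −0.42), where 41.8% of all tested genes fell with a median of −0.36, and ADD1 and TPM1 changed sign. On day 3 vs. day 0, 4 rose (ADD1, MPP1 and ACTB among them) and 1 fell (ADD3), where 6.13% and 6.08% of all tested genes did, with a median of 0.22. Without TMM scaling 2 rose and 0 fell on day 3, where 710 and 886 of the 18753 tested genes did. MPP1, the palmitoylated scaffold that binds both EPB41 and GYPC, went from a median of 60.4 FPKM on day 0 to 127 and 199, with a log2 fold change of 2.17 on day 14 (limma adjusted p = 1.3e-05) in 14 of 15 animals. Tropomyosin TPM3, tropomodulin TMOD3 and the actin capping genes CAPZA1, CAPZA2 and CAPZB had log2 fold changes between −0.12 and 0.04 on day 14 vs. day 0 and did not pass. Without TMM scaling these values were −0.54 (TMOD3) to −0.38 (CAPZB), and all but CAPZB then passed downwards.

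Red cell surface proteins that sit in the same membrane were counted from a list of 23 tested genes. Of these, 13 rose and 0 fell on day 14 vs. day 0 (median log2 fold change 0.89), where 18.2% of all tested genes rose and 17.6% fell. The numbers were 11 and 1 for day 3 vs. day 0 (median 0.71), where 6.13% of all tested genes rose and 6.08% fell. For day 14 vs. day 3 they were 2 and 0 (median 0.40), where 7.89% rose and 5.48% fell, so that the rise was near that share. Without TMM scaling 12 rose and 3 fell on day 14 vs. day 0 (median 0.49), where 1460 of the 18753 tested genes rose and 41.8% fell. From day 3 to day 14, 2 rose and 5 fell without TMM scaling (median 0.03), where 606 of all tested genes rose and 35.2% fell. With the replicate block, 13, 16 and 6 rose on day 3 vs. day 0, day 14 vs. day 0 and day 14 vs. day 3, where 10.2%, 22.5% and 13.3% of all tested genes did. ICAM4, an adhesion molecule of red cells, rose by 1.46 on day 3 and 2.63 on day 14 (limma adjusted p = 0.0081 and 1.5e-06). CD47, which is found on nearly all cells, fell by 0.24 on day 3 (adjusted p = 0.0273), a call that was lost without TMM scaling (−0.28, adjusted p = 0.258).

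Markers of red cell precursors moved with the set. Of 12 tested erythroid markers outside it, 8 rose on day 3 and 12 on day 14 vs. day 0, with median log2 fold changes of 1.18 and 2.45, where 6.13% and 18.2% of all tested genes rose. From day 3 to day 14, 3 (AHSP, HEMGN and BPGM) rose, where 7.89% of all tested genes did. The replicate block gave 10, 12 and 8, where 10.2%, 22.5% and 13.3% of all tested genes rose. Without TMM scaling the counts were 9, 11 and 3, where 710, 1460 and 606 of the 18753 tested genes rose. With scaling by the median of ratios they were 6, 12 and 3. Their summed FPKM ranged from 760 to 22292 on day 0 (median 6171), from 5364 to 30417 on day 3 (median 15697) and from 10831 to 38911 on day 14 (median 28014), and 0 of the 12 were at 0 in any library. TRIM58, a ubiquitin ligase of late erythroblasts, rose by 2.85 on day 14 (limma adjusted p = 5.1e-06). Over the 45 samples the mean standardized level of the erythroid markers had an r of 0.968 with that of the 9 genes, and 0.945 after removal of the time point means. Their part in the result was not tested.

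Markers of other blood cells moved as well. All 10 tested platelet markers rose on day 3 vs. day 0 (median log2 fold change 1.51), where 6.13% of all tested genes rose, whereas 3 of them (PPBP, TUBB1 and CLEC1B) rose on day 14, and ITGA2B, ITGB3 and GP6 fell from day 3 to day 14. The summed FPKM of the platelet markers had medians of 666, 2321 and 1379 at the 3 time points, with ranges of 305 to 4399, 791 to 4412 and 431 to 2329, and the abundant PPBP had medians of 575, 1524 and 1223. Of 10 neutrophil markers 5 fell on day 3 and 9 on day 14 vs. day 0 (median −1.14 and −1.32), where 6.08% and 17.6% of all tested genes fell. Their summed FPKM had medians of 4016, 2701 and 1499, with ranges of 1665 to 34213, 628 to 7614 and 501 to 4017, and S100A12 and CMTM2 were at 0 in some libraries. Of 7 monocyte markers CSF1R rose on day 3, and CD14 and VCAN fell on day 14. Of 6 T cell markers CD3D rose on day 14, and of 6 B cell markers FCRLA fell on day 14. Of all tested genes 6.13% rose on day 3, and 18.2% rose and 17.6% fell on day 14. From day 3 to day 14, 2 monocyte and 3 B cell markers fell and 2 T cell markers rose, where 5.48% of all tested genes fell and 7.89% rose. Several of these counts depended on the fit. With the replicate block, 6 of 10 platelet markers rose on day 14 vs. day 0, where 22.5% of all tested genes did, and 6 fell from day 3 to day 14, where 10.6% did. The block also gave 3 monocyte and 2 B cell markers lower and 2 T cell markers higher on day 14 vs. day 0, where 21.4% of all tested genes fell, and 5 monocyte markers lower from day 3 to day 14. Without TMM, 2 platelet markers rose on day 14 vs. day 0, where 1460 of the 18753 tested genes rose. From day 3 to day 14, 8 platelet markers then fell, where 35.2% of all tested genes fell. The day 14 call of TUBB1 was lost without TMM (0.38, adjusted p = 0.221). Also without TMM, on day 14 vs. day 0, 10 neutrophil, 4 monocyte, 2 T cell and 5 B cell markers fell and 0 of these rose. Of all tested genes 41.8% fell there, and CD3D was at 0.19 (adjusted p = 0.469). The day 3 call of CSF1R was also lost (0.57, adjusted p = 0.0661). The r of the mean standardized level with that of the 9 genes over the 45 samples was 0.486 for platelet, −0.220 for neutrophil, −0.013 for monocyte, −0.035 for T cell and −0.550 for B cell markers. After removal of the time point means it was 0.386, 0.282, 0.187, −0.162 and −0.599 in the same order, so that the sign turned for neutrophil and monocyte markers. The part of these cells in the result was not tested.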

How the data were processed

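Whole-blood RNA (PAXgene) of 15 animals at 3 time points was sequenced as stranded, ribosomal and globin RNA-depleted paired-end libraries. The authors demultiplexed with bcl2fastq (version 2.17, submitters' processing notes), aligned to Chlorocebus_sabeus 1.1 with STAR and counted fragments with HTSeq. The deposited values are FPKM, used here as deposited. Gene lengths and whole fragments were recovered for 33635 of 33635 gene rows above 0 (tolerance 0.02 fragment). They set library totals and the filter, more than 0.5 CPM in at least 3 samples. FPKM were TMM-scaled, 0.1 was added, and log2 values were fitted in limma (version 3.58.1, R 4.3.3) with 1 mean per time point over all 45 samples. The authors' own test used edgeR on counts without a stated block. The fit was also run on simulated counts, drawn independently with a single dispersion and no animal effect. That run therefore does not cover paired samples or the wider spread of these genes. Tables and plots used Python 3.11.15, pandas 2.3.3, numpy 2.4.6 and matplotlib 3.10.9.

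The time points of 1 animal are paired by the labels: with time point means removed, the mean r across genes was 0.328 for 45 pairs of samples from 1 animal and −0.0231 for 630 pairs from different animals. The block fit was an alternative because the study's methods state none, so the standard errors and calls of the main fit do not use this pairing. Other alternatives were scaling, pseudocount, filter, the RNA integrity number from the study's sample list, and leaving out each animal. Leaving out 2 libraries was added after seeing the data. Members and lists were chosen with earlier results of these data known. Named genes were the 9 members, their paralog partners, the 5 genes most like their mean, and, of each list, the called gene with the lowest adjusted p on day 14 vs. day 0 and the gene of the highest mean level. Other list genes are named only as counted, and some list genes are not reported here. Replicates are separate animals.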

Additional observations from a re-analysis of the deposited data

How the results depend on the processing

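All 9 genes were called higher on day 14 vs. day 0 under every alternative run, and 0 fold changes reversed direction. On day 3 vs. day 0 the count of 7 genes stayed between 6 and 8. On day 14 vs. day 3 the count of 3 became 5 with the animal as a replicate block, 5 without the 2 libraries that stood apart, 5 with both, 1 with a pseudocount of 0.01, 1 without the filter, 0 with the RNA integrity number in the model, 1 with block and covariate, and 0 to 4 without 1 animal at a time.

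Of all tested genes, 2290 (day 3 vs. day 0), 6718 (day 14 vs. day 0) and 2508 (day 14 vs. day 3) were called. With the replicate block the first and last became 3572 and 4479, the last also 4624 without the 2 libraries. With the RNA integrity number they were 1421, 3779 and 1080, and with block and covariate the second was 4089. Without TMM the last was 7206 (606 higher), with 9290 (1460 higher) on day 14 vs. day 0, against 1480 and 3422 higher with TMM. Without the filter the last was 1589. Leaving out each animal gave 1348 to 2350, 5888 to 6884 and 796 to 3155, the lowest without animal 2, 14 and 8. The replicate block changed no call of the 9 genes beyond TMOD1, EPB42 and DMTN, given in the text. The cause of these shifts was not tested.

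Depth limits DMTN and ADD2 most, with as few as 20 and 18 fragments in a library, where their median libraries had 97 and 534. Counting error was not measured. All fold changes rest on 15 animals with a wide spread.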
